A study of Homo sapiens with 40 samples.

Results

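The mucosal and basal keratins described here are 5 genes, KRT4, KRT13, KRT5, KRT14 and KRT15, chosen by symbol for their place in stratified epithelium. All 5 were present in the deposited table of 12655 genes, which holds 11 other numbered keratin genes. Keratins are the intermediate filament proteins of epithelial cells, and a filament needs a type I and a type II chain. In stratified squamous epithelium, KRT5 (type II) and KRT14 (type I) form the filaments of the proliferating basal layer, and KRT15 is a further type I chain of basal cells. In the non-keratinising mucosa of the mouth, pharynx and oesophagus, cells that leave the basal layer make KRT4 (type II) and KRT13 (type I) in their place. In squamous carcinomas the balance of these chains is used as a sign of how far tumour cells have differentiated.

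RNA was measured in spheroids of Kyse30, an oesophageal squamous carcinoma line, and FaDu, from a hypopharyngeal tumour, both carrying Dendra2, a fluorescent protein that light turns from green to red. All spheroids lay in type I collagen for 72 h and all libraries came from sorted cells, so every group shares the collagen, the collagenase digestion and the sort. In each line 5 groups of 4 libraries were made: 9 nM epidermal growth factor (EGF) with 100 nM AZD6244, an inhibitor of the MEK kinases below the EGF receptor; EGF with 10 µg/mL cetuximab, an antibody that blocks that receptor; EGF, invasive cells; EGF, non-invasive cells; and serum-free medium with no added EGF. The labels call the AZD6244, cetuximab and serum-free libraries unselected, so a comparison of either EGF group with one of them changes the way cells were picked together with the agent. The titles call the cells of both EGF groups photoconverted and do not say so of the other groups. Exposure to light may thus differ in these comparisons as well. A further label describes invasive cells for both EGF groups, and the division of these groups rests on the sample titles. Whether replicates were separate cultures is not labelled, so the p-values reflect the scatter among these libraries alone, which may be technical.

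The libraries were 3′ tag libraries, in which a gene's count does not scale with transcript length. Total counts ran from 463124 to 4534339 in Kyse30 and from 2312126 to 5669262 in FaDu. The first invasive Kyse30 library stood apart with 463124 counts and 5281 detected genes, against 2538447 counts in the next lowest library of that line. Levels are in CPM, which puts the counts of a line's libraries on one scale of depth. Of the 7 squamous epithelial markers listed, EPCAM, CDH1, TP63, SFN, DSP and PERP were in the table and PKP1 was not. Their summed level was 1424 to 3669 CPM over the Kyse30 libraries and 2905 to 5356 CPM over the FaDu libraries. Of the marker lists of other cells, only COL1A1 (fibroblasts, 7 listed), CD68 (leukocytes, 5 listed) and CDH5 (endothelium, 3 listed) were in the table. COL1A1 reached at most 24.7 CPM in any library, CD68 53.7 CPM and CDH5 34.6 CPM.

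By GENCODE 29 on GRCh38 all 5 genes lie on the minus strand, the type II genes on chromosome 12 and the type I genes on chromosome 17. KRT4 (ENSG00000170477.12) lies at chr12:52806549-52814551 and KRT5 (ENSG00000186081.11) at chr12:52514575-52520687, each with 9 exons. KRT13 (ENSG00000171401.14) lies at chr17:41500981-41505705, KRT15 (ENSG00000171346.15) at chr17:41513743-41522529 and KRT14 (ENSG00000186847.5) at chr17:41582279-41586921, each with 8 exons. KRT13 is overlapped on the other strand by the antisense gene AC019349.1, which is not in the count table, and the strand setting of the counting is not given in the sources used here. KRT14 shares sequence with the pseudogene KRT16P6 in 56 of the 251 windows of 50 bases at its 3′ end, so reads could be split or lost there. The other 4 keratins shared no such window with another gene.

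The promoters of KRT4 and KRT5, the type II chains of the suprabasal and of the basal layer, are shown because these genes stood at different shares of their serum-free level with AZD6244 in FaDu. They are the only members matched in the RefSeq promoter table (GRCh38.p14), which gives 250 bases before to 50 bases after each start; KRT13, KRT14 and KRT15 are named only. The KRT4 window is chr12:52814067-52814366 and the KRT5 window chr12:52520345-52520644, both written 5′ to 3′ on the minus strand. Both lie inside the GENCODE gene spans given above. The starts used here are thus downstream of the GENCODE gene starts, and the positions below depend on that choice. Capitals mark the TATA core TATAA, the ETS factor core GGAAG and the KLF-type box CACCC, which reads GGGTG when it lies on the other strand.
KRT4: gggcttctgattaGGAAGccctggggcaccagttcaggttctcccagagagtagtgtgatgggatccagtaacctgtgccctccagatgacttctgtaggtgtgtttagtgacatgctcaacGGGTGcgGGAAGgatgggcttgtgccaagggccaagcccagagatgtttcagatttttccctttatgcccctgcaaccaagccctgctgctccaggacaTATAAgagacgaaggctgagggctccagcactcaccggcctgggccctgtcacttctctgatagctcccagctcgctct
KRT5: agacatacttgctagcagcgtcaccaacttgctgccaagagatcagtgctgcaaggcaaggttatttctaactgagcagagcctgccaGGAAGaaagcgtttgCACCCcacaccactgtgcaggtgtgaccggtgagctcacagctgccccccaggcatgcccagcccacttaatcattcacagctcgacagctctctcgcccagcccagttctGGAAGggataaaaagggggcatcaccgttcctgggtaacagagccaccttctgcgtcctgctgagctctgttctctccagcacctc
KRT4 held TATAA at base -29 from the start, GGAAG at -237 and -121, and GGGTG at -128. KRT5 held GGAAG at -162 and -36, CACCC at -147, and no exact TATAA. Variants of the TATA core were not searched for. The AP-1 motif TGANTCA was in neither window, the AP-2 motif GCCNNNGGC was in KRT4 at -105 and not in KRT5, and the E-box CANNTG was in KRT4 at -167 and in KRT5 at -130 and -109. Searched on both strands, GGAAG was in 71.9% of 35116 promoters of the same length, CACCC in 59.9%, TATAA in 20.4%, the E-box in 68.7%, the AP-2 motif in 23.2% and the AP-1 motif in 7.71%. No match overlapped another. A match is a description of letters, not a bound site.

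In serum-free medium the lines differed in which of these keratins they carried. Kyse30 carried KRT13 and KRT4 with some KRT15, and next to no KRT5 or KRT14. FaDu carried KRT15 and KRT5 with less KRT4 and KRT13, and next to no KRT14. A test in a fit over all 40 libraries (edgeR quasi-likelihood F test, Benjamini-Hochberg adjustment, as for all adjusted p-values here) called 3 of the 5 members, where 43.5% of the 12652 genes tested were called. KRT13 was higher in Kyse30, with a log2 difference of 2.61 ± 0.54 (approximate SE, derived from the F test), and KRT15 was lower, at -2.50 ± 0.29. KRT5 had 3 counts in all in the Kyse30 serum-free libraries and 10775 in those of FaDu, so its level was 2955-fold lower in Kyse30, with an exact 95% interval of 1011-fold to 14333-fold that covers counting error only. KRT4, at -0.59 ± 0.35, was not called (adjusted p = 0.179; 0.0479 with limma-voom and up to 0.279 over the alternatives). KRT14 had 0 and 4 counts in the serum-free libraries of Kyse30 and FaDu, too few to compare. Over all 20 Kyse30 libraries KRT5 totalled 21 counts and KRT14 11, and neither passed the filter on low counts in that line.

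**Figure D1:**
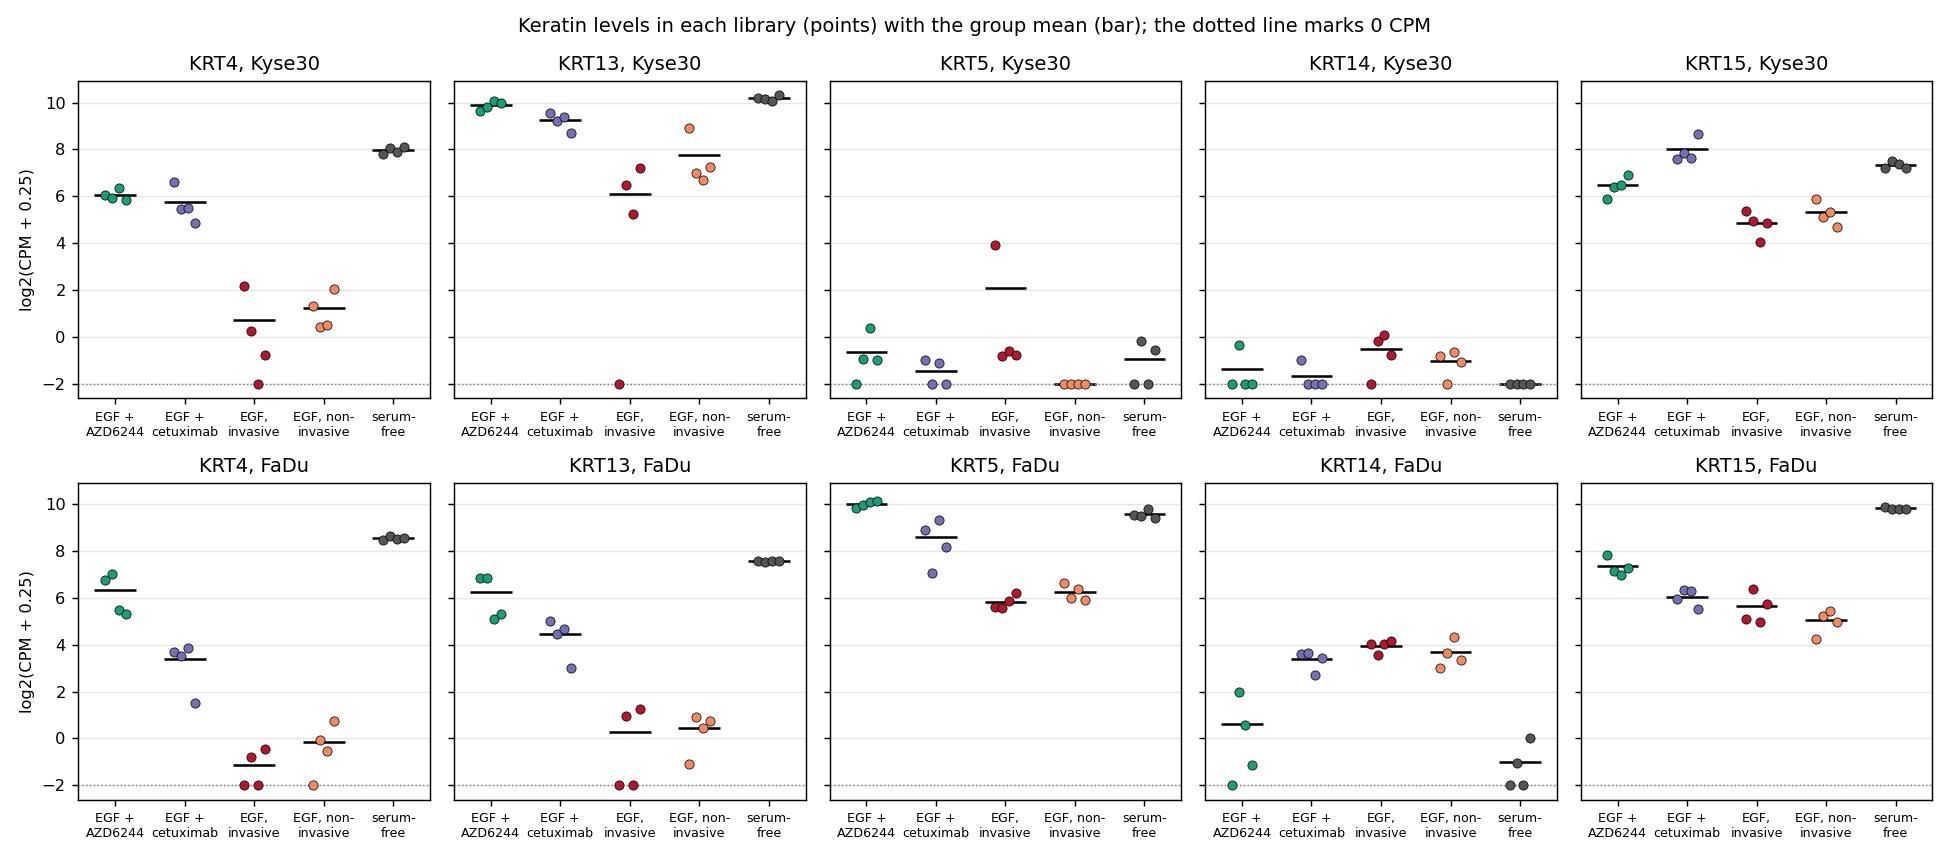
Level of each keratin in every library, as log2(CPM + 0.25) on the vertical axis, for Kyse30 (top row) and FaDu (bottom row); points are libraries, bars are group means and the dotted line is 0 CPM. In both lines KRT4 sits at 4.29 CPM or less in every EGF invasive and non-invasive library and at 225 CPM or more in every serum-free library.

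KRT4, the suprabasal type II chain, fell furthest of the tested members in EGF-treated non-invasive cells of each line. In Kyse30 it stood at 2.20, 1.08, 1.15 and 3.83 CPM in non-invasive cells, against 225, 270.5, 236 and 277 CPM in serum-free spheroids. In FaDu it stood at 0, 0.699, 0.446 and 1.45 CPM in non-invasive cells, against 359, 401, 364 and 376 CPM in serum-free spheroids. The groups were far apart in both lines, and the serum-free libraries lay close together. The log2 differences were -6.86 ± 0.48 in Kyse30 (adjusted p = 6.49e-10) and -9.14 ± 0.64 in FaDu (adjusted p = 3.67e-09). All members tested passed in these comparisons, 3 of 3 in Kyse30, where 12.9% of genes were called, and 5 of 5 in FaDu, where 50% of genes were called. The FaDu value rests on 11 counts in the non-invasive group and is -9.84 without its replicate 4.

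KRT13, the type I partner of KRT4, nearly vanished in FaDu and fell less in Kyse30. In Kyse30 it stood at 489, 127, 102 and 151 CPM in non-invasive cells, against 1178, 1152, 1077 and 1264 CPM in serum-free spheroids. In FaDu it stood at 0.224, 1.63, 1.11 and 1.45 CPM in non-invasive cells, against 192, 185, 192 and 189 CPM in serum-free spheroids. The groups did not overlap in either line, but in Kyse30 replicate 1 of the non-invasive cells stood well above the other 3. The log2 differences were -2.43 ± 0.53 in Kyse30 (adjusted p = 0.00315) and -7.40 ± 0.66 in FaDu (adjusted p = 7.24e-08). Without that Kyse30 library the difference is -3.20, and without the 2 non-invasive Kyse30 libraries rich in the nuclear RNA MALAT1 (replicates 1 and 3) it is -3.06. MALAT1 took 6.27% and 9.63% of the counts in those 2 libraries and 1.68% and 1.91% in the other 2, and its part in the KRT13 level was not tested.

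Of the basal chains, KRT15 fell in both lines and KRT5 fell in FaDu, while KRT14 rose in FaDu. KRT15 stood at 59.1, 34.2, 39.6 and 25.2 CPM in Kyse30 non-invasive cells, against 148, 184, 165 and 149 CPM in serum-free spheroids, a log2 difference of -2.03 ± 0.30 (adjusted p = 4.94e-05). In FaDu it stood at 18.8, 37.5, 43.5 and 31.2 CPM in non-invasive cells, against 941, 902, 893 and 878 CPM in serum-free spheroids, a log2 difference of -4.78 ± 0.32 (adjusted p = 5.74e-10). No invasive or non-invasive library of either line reached the serum-free range of KRT15. KRT5 stood at 100.2, 63.6, 84.0 and 59.3 CPM in FaDu non-invasive cells, against 751, 725, 885 and 687 CPM in serum-free spheroids, and fell by 3.31 ± 0.35 on the log2 scale (adjusted p = 5.37e-07).

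KRT14 ran the other way from its usual partner KRT5. It stood at 7.84, 12.3, 19.8 and 9.92 CPM in FaDu non-invasive cells, against 0, 0.235, 0 and 0.756 CPM in serum-free spheroids. The log2 difference was 5.34 ± 0.71 (adjusted p = 6.83e-07), and the groups did not overlap. The serum-free group held 4 counts of KRT14 in all, and the difference is 6.62 without serum-free replicate 4. Even so, KRT14 stayed below KRT5 in every FaDu library (3′ counts, which do not scale with length). KRT14 reads could be split or lost where it shares sequence with KRT16P6, so its counts may understate its level against KRT5.

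Other measures of the libraries moved with these comparisons, and their part in the keratin differences was not tested. Mitochondrial genes took 8.22 to 19.3% of the counts in Kyse30 non-invasive cells and 19.7 to 23.8% in serum-free spheroids. In FaDu they took 7.50 to 11.5% in non-invasive cells and 14.3 to 15.8% in serum-free spheroids. The summed squamous markers stood at 2096 to 3186 CPM in Kyse30 non-invasive cells and 1424 to 1625 CPM in serum-free spheroids, and at 3906 to 4695 CPM and 4085 to 4312 CPM in those groups of FaDu. Their members differed: in FaDu, PERP (-1.02 ± 0.17), DSP (-0.85 ± 0.16) and TP63 (-0.66 ± 0.25) were called lower in non-invasive cells and SFN higher (2.21 ± 0.19), and in Kyse30 SFN (2.35 ± 0.25) and DSP (1.25 ± 0.20) were called higher. Among the markers of other cells, CDH5 was called lower in non-invasive cells of both lines, at 3.77 to 6.93 CPM against 16.4 to 34.6 CPM in serum-free Kyse30 spheroids and at 0 to 0.224 CPM against 2.27 to 5.29 CPM in serum-free FaDu spheroids. In FaDu COL1A1 was called lower, at 4.43 to 10.9 CPM in non-invasive cells and 16.9 to 22.4 CPM in serum-free spheroids, and CD68 higher, at 6.95 to 10.9 CPM and 0 to 1.70 CPM in those groups. With AZD6244 CDH5 stood at 8.71 to 12.98 CPM in Kyse30 and at 0 to 3.17 CPM in FaDu, and with cetuximab at 11.9 to 28.6 CPM and at 0 to 0.315 CPM in those lines. These are bulk libraries, so fewer cells with a keratin and less of its RNA per cell cannot be told apart.

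Invasive cells stood against serum-free spheroids much as non-invasive cells did, with every tested member called. In Kyse30, where 26.6% of genes were called, the log2 differences were -8.46 ± 0.59 for KRT4, -3.99 ± 0.57 for KRT13 and -2.54 ± 0.32 for KRT15 (adjusted p between 3.03e-10 and 1.78e-05). The KRT13 value is -4.62 without invasive replicate 4 and -5.03 with limma-voom. In FaDu, where 57.3% of genes were called, KRT13, KRT5, KRT14 and KRT15 differed by -7.58 ± 0.68, -3.74 ± 0.36, 5.63 ± 0.70 and -4.17 ± 0.31. KRT4 had 3 counts in the FaDu invasive group, which puts it 2061-fold lower than in serum-free spheroids, with an exact 95% counting interval of 705-fold to 9997-fold. The FaDu KRT13 value is -8.52 without invasive replicate 4 and -8.51 with limma-voom, and the KRT14 value is 6.91 without serum-free replicate 4.

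Between invasive and non-invasive cells under EGF, no member passed the test in either line, 0 of 3 in Kyse30 and 0 of 5 in FaDu. Few genes passed at all in Kyse30, 0.409%, and 3% passed in FaDu. KRT13 stood at 0, 88.9, 37.4 and 149 CPM in Kyse30 invasive cells, against 489, 127, 102 and 151 CPM in non-invasive cells, a log2 difference of -1.56 ± 0.52 (adjusted p = 0.193). The groups overlapped, and the 0 is in the library with 463124 counts, where 3 counts amount to 6.44 CPM. KRT4 and KRT15 differed by -1.59 ± 0.74 and -0.50 ± 0.31 in Kyse30. In FaDu the differences were -0.19 ± 1.15 for KRT13, -0.43 ± 0.34 for KRT5, 0.29 ± 0.43 for KRT14 and 0.61 ± 0.30 for KRT15. FaDu KRT4 had 3 counts in invasive and 11 in non-invasive cells, 3.25-fold lower in invasive cells with a counting interval of 0.859-fold to 18.1-fold. By edgeR, 2 members in Kyse30 (KRT4 and KRT13, both lower in invasive cells) and 0 in FaDu had an unadjusted p under 0.05. The share of all genes under that unadjusted threshold was not counted, so these counts have no background to be read against. Neither DESeq2 nor limma-voom called a member in either line.

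KRT5 and KRT14 in Kyse30 were at the limit of counting. KRT5 had 15.0 CPM in invasive replicate 1 and at most 0.407 CPM in the other 3 invasive libraries, 0 CPM in all 4 non-invasive libraries and at most 1.04 CPM in the other groups. Invasive replicate 1 is the library with 463124 counts, and its value is 7 counts. KRT14 was at most 0.814 CPM in every Kyse30 library and at 0 in all 4 serum-free libraries. Summed over a group, 10 KRT5 counts in invasive cells against 3 in serum-free spheroids is a 3.72-fold ratio with a counting interval of 0.958-fold to 21.0-fold. Against the 0 counts of non-invasive cells, set to a floor of 3, the ratio is 5.28-fold, with a counting interval from 3.55-fold upward. Of the 10 counts, 7 are in the library with 463124 counts.

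Cetuximab with EGF was set against EGF-treated non-invasive cells to ask how the keratins stood when the receptor was blocked; the EGF group here is the same one that was set against serum-free medium. KRT4 was higher with cetuximab in both lines, KRT15 in both lines, and KRT13 and KRT5 in FaDu. In Kyse30, 2 of 3 members were called where 4.93% of genes were, and in FaDu 4 of 5 where 8.56% were. Kyse30 KRT4 stood at 96.7, 43.9, 44.3 and 28.5 CPM with cetuximab, and the log2 difference was 4.62 ± 0.45 (adjusted p = 5.34e-07). FaDu KRT4 stood at 12.7, 11.3, 14.3 and 2.58 CPM with cetuximab, and the log2 difference was 3.92 ± 0.76 (adjusted p = 0.00304). Every cetuximab library lay above every non-invasive library for KRT4 in both lines. The FaDu call is lost with limma-voom (adjusted p = 0.0695; 5.36e-07 to 0.0695 over the alternatives), and its value is 4.62 without non-invasive replicate 4.

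KRT13 with cetuximab stood at 747, 589, 659 and 415 CPM in Kyse30, where replicate 4 lay below the highest non-invasive library. The log2 difference of 1.47 ± 0.51 was not called (adjusted p = 0.102). It is 2.25 without non-invasive replicate 1 (adjusted p = 0.0106) and was called under 3 further alternatives, with a range of 0.00867 to 0.258. In FaDu KRT13 stood at 31.7, 21.7, 24.9 and 7.91 CPM with cetuximab, a log2 difference of 4.25 ± 0.69 (adjusted p = 0.000700).

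Among the basal chains under cetuximab, KRT15 rose in both lines and KRT5 in FaDu. In Kyse30 KRT15 stood at 194, 231, 201 and 409 CPM with cetuximab, all above the non-invasive libraries, and differed by 2.71 ± 0.31 on the log2 scale (adjusted p = 6.06e-06). In FaDu it stood at 61.7, 80.7, 77.5 and 45.4 CPM, a log2 difference of 1.01 ± 0.29 (adjusted p = 0.0370). That FaDu call is lost when any of cetuximab replicates 1, 2 and 3 or non-invasive replicates 1, 2 and 4 is left out, with adjusted p-values of 0.00397 to 0.130 over the alternatives. FaDu KRT5 stood at 478, 132, 643 and 287 CPM with cetuximab, spread widely but all above the non-invasive libraries, a log2 difference of 2.33 ± 0.34 (adjusted p = 0.000219). KRT14 stood at 12.1, 12.3, 6.23 and 10.7 CPM with cetuximab, overlapped the non-invasive libraries and was not called (-0.28 ± 0.44, adjusted p = 0.768).

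**Figure D2:**
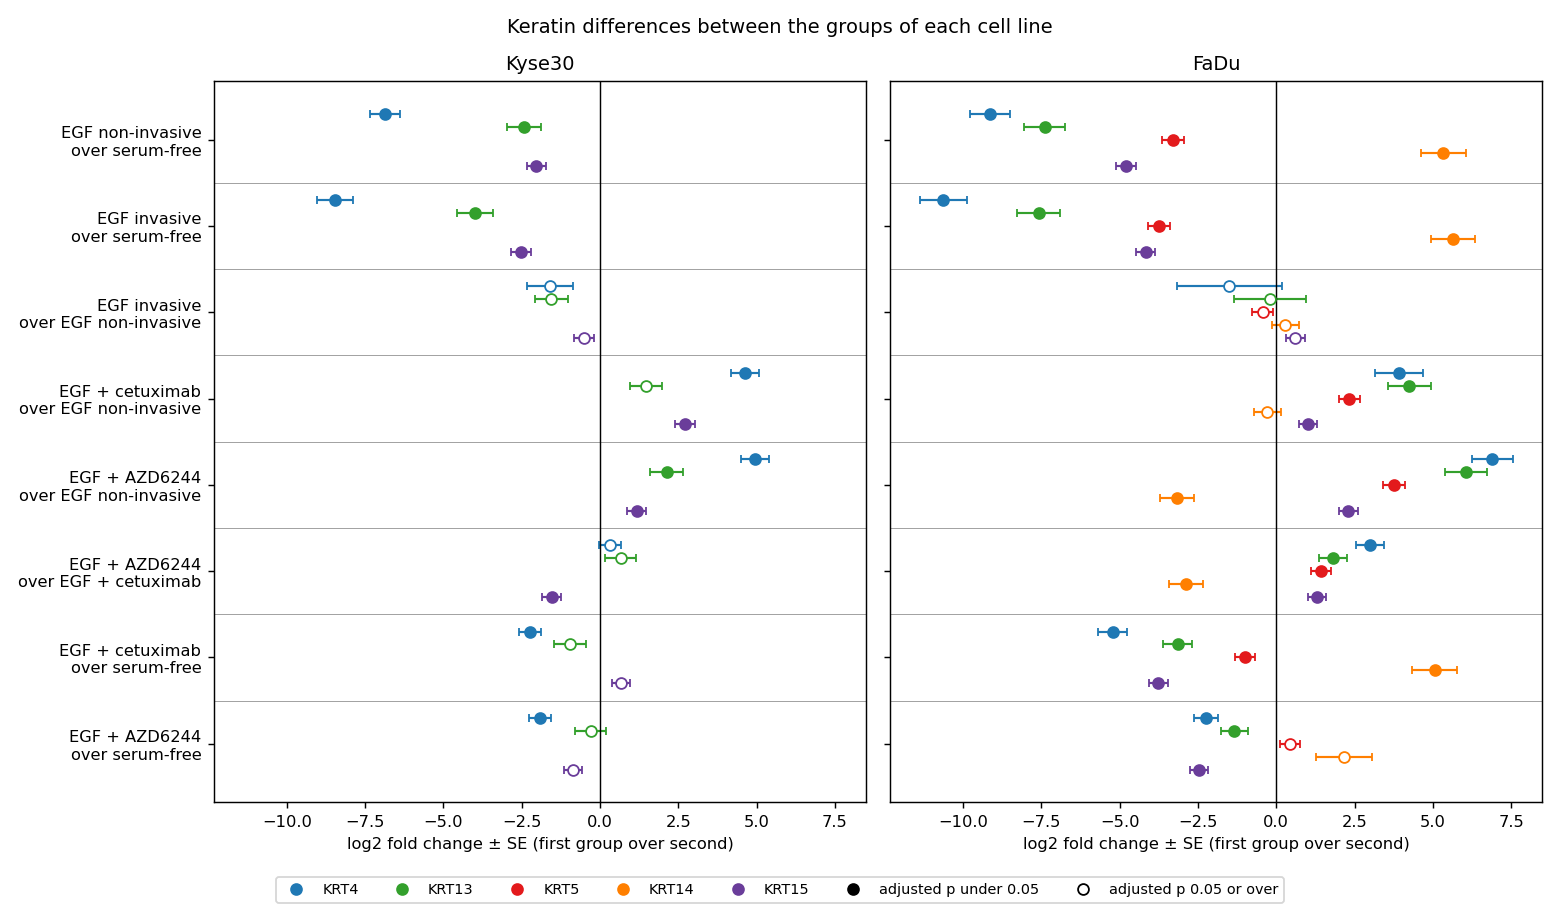
Log2 differences with their approximate SE (horizontal axis, first group over second) for the tested keratins in 8 comparisons, Kyse30 left and FaDu right. Filled points have an adjusted p under 0.05. Under the inhibitors KRT14 in FaDu lies left of 0, at -0.28 and -3.18 over non-invasive cells, while the other 4 keratins lie to the right.

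With AZD6244, all members tested differed from EGF-treated non-invasive cells, 3 of 3 in Kyse30, where 4.56% of genes were called, and 5 of 5 in FaDu, where 29.7% were. In Kyse30 KRT4 stood at 66.0, 61.3, 81.0 and 57.8 CPM with AZD6244 and rose by 4.94 ± 0.45 on the log2 scale (adjusted p = 1.28e-07). In FaDu it stood at 107, 128, 44.6 and 39.6 CPM and rose by 6.90 ± 0.65 (adjusted p = 4.12e-07; 7.60 without non-invasive replicate 4). KRT13 stood at 807, 910.0, 1063 and 1016 CPM in Kyse30 and at 115, 114, 34.1 and 39.8 CPM in FaDu with AZD6244. Replicates 1 and 2 of FaDu stood well above replicates 3 and 4 for both suprabasal chains. The KRT13 log2 differences were 2.13 ± 0.52 in Kyse30 (adjusted p = 0.0168) and 6.06 ± 0.66 in FaDu (adjusted p = 2.27e-06).

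KRT15 stood at 59.2, 83.3, 90.3 and 121 CPM in Kyse30 with AZD6244, the lowest just above the highest non-invasive library of 59.1 CPM, a log2 difference of 1.17 ± 0.30 (adjusted p = 0.0197). The KRT13 and KRT15 calls in Kyse30 are lost without non-invasive replicate 2, 3 or 4 or AZD6244 replicate 3, and that of KRT15 also without AZD6244 replicate 4. Over the alternatives their adjusted p-values ran from 0.000362 to 0.0702 and from 0.00158 to 0.102, and the KRT13 value is 2.90 without non-invasive replicate 1 and 2.77 without the 2 MALAT1-rich libraries. In FaDu KRT15 stood at 231, 141, 124 and 154 CPM with AZD6244 and rose by 2.31 ± 0.30 (adjusted p = 8.86e-06).

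KRT5 in FaDu stood at 917, 1008, 1105 and 1120.1 CPM with AZD6244 and rose by 3.76 ± 0.36 (adjusted p = 3.95e-07). KRT14, its partner, was the only member that fell: it stood at 0, 3.69, 1.24 and 0.213 CPM with AZD6244, below every non-invasive library. Its log2 difference was -3.18 ± 0.54 (adjusted p = 6.17e-05), -4.43 without AZD6244 replicate 2 and -3.90 with limma-voom.

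Set against serum-free spheroids, the inhibitor groups show how far each keratin stood from its level without added EGF. The same serum-free libraries served all these comparisons. With AZD6244, 1 of 3 members was called in Kyse30, where 3.9% of genes were, and 3 of 5 in FaDu, where 19.4% were. KRT4 averaged 26.4% of its serum-free mean in Kyse30 and 21.3% in FaDu, log2 differences of -1.92 ± 0.36 (adjusted p = 0.00275) and -2.24 ± 0.39 (adjusted p = 0.000606). KRT13 averaged 81.3% of its serum-free mean in Kyse30 (-0.30 ± 0.50, adjusted p = 0.827) and 39.9% in FaDu (-1.34 ± 0.43, adjusted p = 0.0368). The FaDu KRT13 call is lost with DESeq2 (adjusted p = 0.0747) and without AZD6244 replicate 3 or 4 or any serum-free replicate, with a range of 0.000363 to 0.105. KRT15 averaged 54.8% in Kyse30 (-0.87 ± 0.29, adjusted p = 0.0971), where every AZD6244 library lay below every serum-free library, and 18.0% in FaDu (-2.48 ± 0.29, adjusted p = 4.56e-06). The Kyse30 KRT15 difference is called with limma-voom, without invasive replicate 1 and with only the compared groups in the fit, with a range of 0.00237 to 0.303.

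KRT5 in FaDu averaged 136% of its serum-free mean with AZD6244. Every AZD6244 library lay above every serum-free library, but the log2 difference of 0.45 ± 0.32 was not called (adjusted p = 0.358; 0.0106 to 0.507 over the alternatives). KRT14 with AZD6244 overlapped the serum-free libraries and was not called (2.16 ± 0.90, adjusted p = 0.0933; 0.0366 to 0.576 over the alternatives). Single libraries move this value, to 0.91 without AZD6244 replicate 2 and to 3.44 without serum-free replicate 4, and it is called with DESeq2 and without AZD6244 replicate 1 or 4.

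With cetuximab, 1 of 3 members differed from serum-free in Kyse30, where 3.13% of genes were called, and 5 of 5 in FaDu, where 43.8% were. KRT4 averaged 21.2% of its serum-free mean in Kyse30 (-2.24 ± 0.36, adjusted p = 0.000849) and 2.73% in FaDu (-5.22 ± 0.47). KRT13 averaged 51.6% in Kyse30, where it was not called (-0.95 ± 0.51, adjusted p = 0.343; 0.000855 to 0.556 over the alternatives), and 11.4% in FaDu (-3.15 ± 0.47). KRT15 averaged 160% in Kyse30, with every cetuximab library above every serum-free library and no call (0.68 ± 0.29, adjusted p = 0.213; 0.0417 to 0.622 over the alternatives), and 7.34% in FaDu (-3.77 ± 0.30). KRT5 in FaDu averaged 50.5% (-0.98 ± 0.32, adjusted p = 0.0194). Its call is lost without cetuximab replicate 4 (adjusted p = 0.0607) and with only the compared groups in the fit (0.0900), with a range of 0.00105 to 0.0900. KRT14 was 5.05 ± 0.72 higher on the log2 scale with cetuximab than in serum-free FaDu spheroids, and 6.33 higher without serum-free replicate 4.

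AZD6244 was also set against cetuximab, each in the presence of EGF and each at its own dose. In FaDu all 5 members differed, where 19.7% of genes were called. KRT4, KRT13, KRT5 and KRT15 were higher with AZD6244, by log2 differences of 2.98 ± 0.44 (adjusted p = 0.000148), 1.81 ± 0.46 (adjusted p = 0.00937), 1.43 ± 0.32 (adjusted p = 0.00444) and 1.29 ± 0.28 (adjusted p = 0.00301). KRT14 was lower with AZD6244, at -2.89 ± 0.54 (adjusted p = 0.000369), at -4.14 without AZD6244 replicate 2 and at -3.63 with limma-voom. The groups did not overlap for any of the 5, but the share of all genes without overlap was not counted. In Kyse30 1 of 3 members differed, where 1.18% of genes were called. KRT15 was lower with AZD6244, at -1.55 ± 0.29 (adjusted p = 0.00623), a call lost without cetuximab replicate 4 (-1.24, adjusted p = 0.0576; 0.000193 to 0.0576 over the alternatives). KRT4 and KRT13 differed by 0.32 ± 0.35 (adjusted p = 0.985) and 0.66 ± 0.50 (adjusted p = 0.906).

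**Figure D3:**
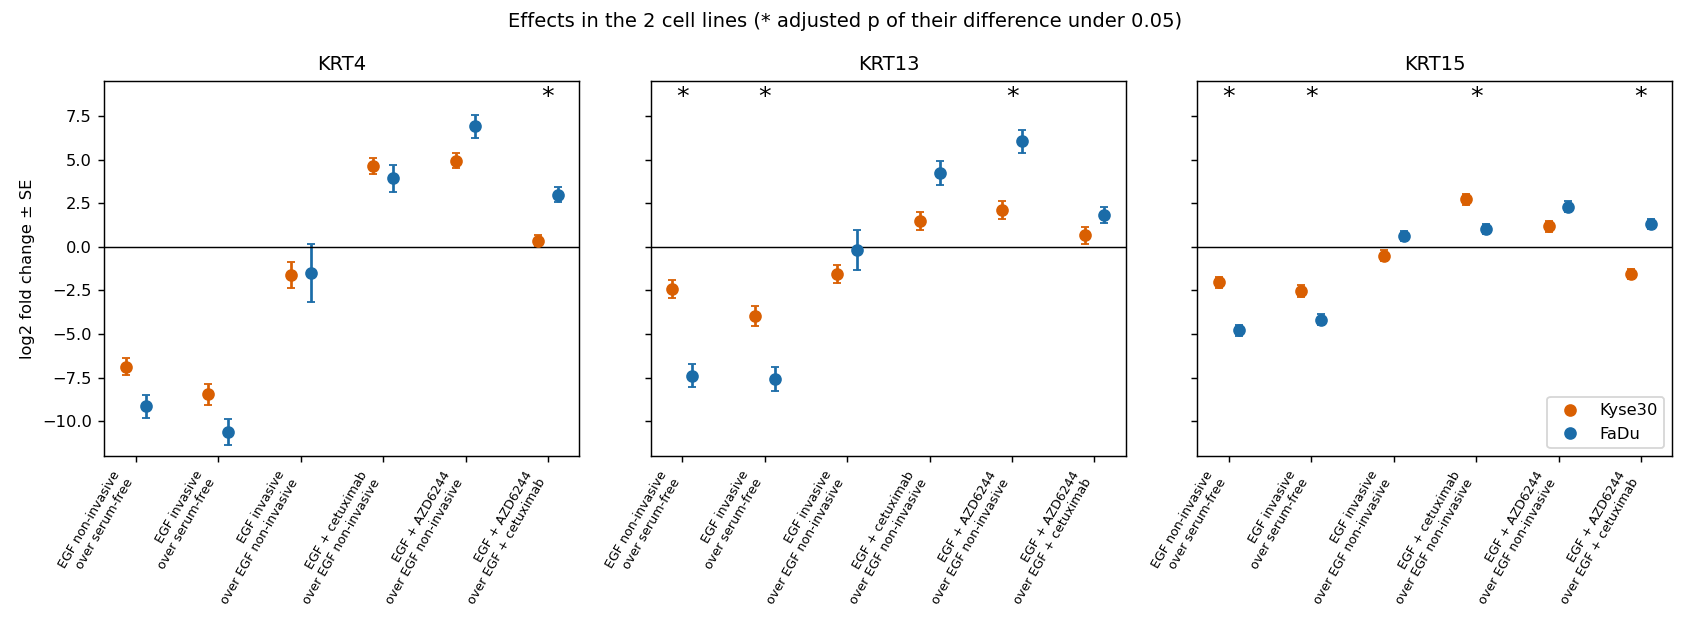
Log2 differences with their approximate SE (vertical axis) of KRT4, KRT13 and KRT15 in 6 comparisons, Kyse30 in orange and FaDu in blue. A star marks an adjusted p under 0.05 for the difference between the lines. KRT15 under AZD6244 over cetuximab lies on opposite sides of 0, at -1.55 in Kyse30 and 1.29 in FaDu.

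Whether the lines differed in these responses was tested as the Kyse30 difference minus the FaDu difference in the fit over all 40 libraries, chiefly for the 3 keratins that passed the filter in both lines. For non-invasive cells against serum-free, where 15.7% of genes were called, the value was 4.97 ± 0.94 for KRT13 (adjusted p = 0.000314) and 2.75 ± 0.40 for KRT15 (adjusted p = 3.49e-06), so both fell less in Kyse30. The KRT13 value is 4.19 without Kyse30 non-invasive replicate 1 and 4.32 without the 2 MALAT1-rich libraries, and is called in both fits. KRT4, at 2.28 ± 0.84, was not called (adjusted p = 0.0590; 0.0116 to 0.240 over the alternatives). For invasive cells against serum-free, where 18.3% of genes were called, KRT13 differed by 3.63 ± 1.00 (adjusted p = 0.0103) and KRT15 by 1.61 ± 0.41 (adjusted p = 0.00447). KRT13 is at 4.56 without FaDu invasive replicate 4 and at 2.99 without Kyse30 invasive replicate 4. KRT5 was also called there, at 5.74 ± 1.33 (adjusted p = 0.00216), on 10 and 3 counts in the Kyse30 groups; without Kyse30 invasive replicate 1 it is 4.02 (adjusted p = 0.142), without Kyse30 serum-free replicate 2 it is 6.66 and with DESeq2 6.74. No member was called for invasive against non-invasive cells, where 0.182% of genes were. By edgeR 2, KRT5 and KRT15, had an unadjusted p under 0.05, a threshold at which the share of all genes was not counted. DESeq2 called 1, KRT5, on 10 and 0 counts in the Kyse30 groups, and limma-voom called 0.

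Under the inhibitors, over non-invasive cells, the lines parted in KRT15 with cetuximab and in KRT13 with AZD6244. Between the inhibitors they parted in KRT15 and KRT4. KRT15 for AZD6244 over non-invasive cells was not called (-1.12 ± 0.40, adjusted p = 0.0962). Nor was KRT13 for cetuximab over non-invasive cells (-2.72 ± 0.97, adjusted p = 0.204). Over non-invasive cells the KRT4 value was 0.75 ± 1.00 for cetuximab (adjusted p = 0.877) and -1.95 ± 0.85 for AZD6244 (adjusted p = 0.196). For cetuximab over non-invasive cells, where 1.31% of genes were called, KRT15 rose more in Kyse30, by 1.75 ± 0.40 (adjusted p = 0.0125), a call lost without Kyse30 cetuximab replicate 4 (1.45, adjusted p = 0.0577; 0.00297 to 0.0577 over the alternatives). For AZD6244 over non-invasive cells, where 5.1% of genes were called, KRT13 rose less in Kyse30, at -3.91 ± 0.95 (adjusted p = 0.0110). That call is lost with limma-voom (adjusted p = 0.0639) and without the 2 MALAT1-rich Kyse30 libraries (-3.27, adjusted p = 0.0549), with a range of 0.00124 to 0.0639, and the value is -3.13 without Kyse30 non-invasive replicate 1. For AZD6244 over cetuximab, a test added after seeing the data and in which 1.04% of genes were called, the value was -2.87 ± 0.40 for KRT15 (adjusted p = 1.86e-05) and -2.70 ± 0.53 for KRT4 (adjusted p = 0.00416). KRT15 was thus lower with AZD6244 than with cetuximab in Kyse30 and higher with AZD6244 in FaDu.

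The make-up of the 5 keratins' counts differed between the lines in every group. KRT4 and KRT13 together made up 92.0% of these counts on average with AZD6244, 71.1% with cetuximab, 58.2% in invasive cells, 81.5% in non-invasive cells and 89.7% in serum-free spheroids of Kyse30. In FaDu they made up 11.4% with AZD6244, 7.09% with cetuximab, 0.797% in invasive cells, 1.51% in non-invasive cells and 25.3% in serum-free spheroids. The Kyse30 invasive mean is pulled down by the library with 463124 counts, in which 2 of 28 keratin counts were suprabasal (7.14%, exact 95% interval 0.877 to 23.5%); the other 3 libraries lay at 68.1 to 83.5%. In FaDu the share was 23.8 to 26.5% in the serum-free libraries and 0 to 2.81% in the invasive and non-invasive libraries. Together the 5 keratins took a smaller mean share of all counts in invasive and non-invasive cells than in the other 3 groups of each line. In Kyse30 this share averaged 0.125% with AZD6244, 0.1005% with cetuximab, 0.00944% in invasive cells, 0.0233% in non-invasive cells and 0.151% in serum-free spheroids. In FaDu it averaged 0.144% with AZD6244, 0.0498% with cetuximab, 0.0115% in invasive cells, 0.0121% in non-invasive cells and 0.232% in serum-free spheroids.

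**Figure D4:**
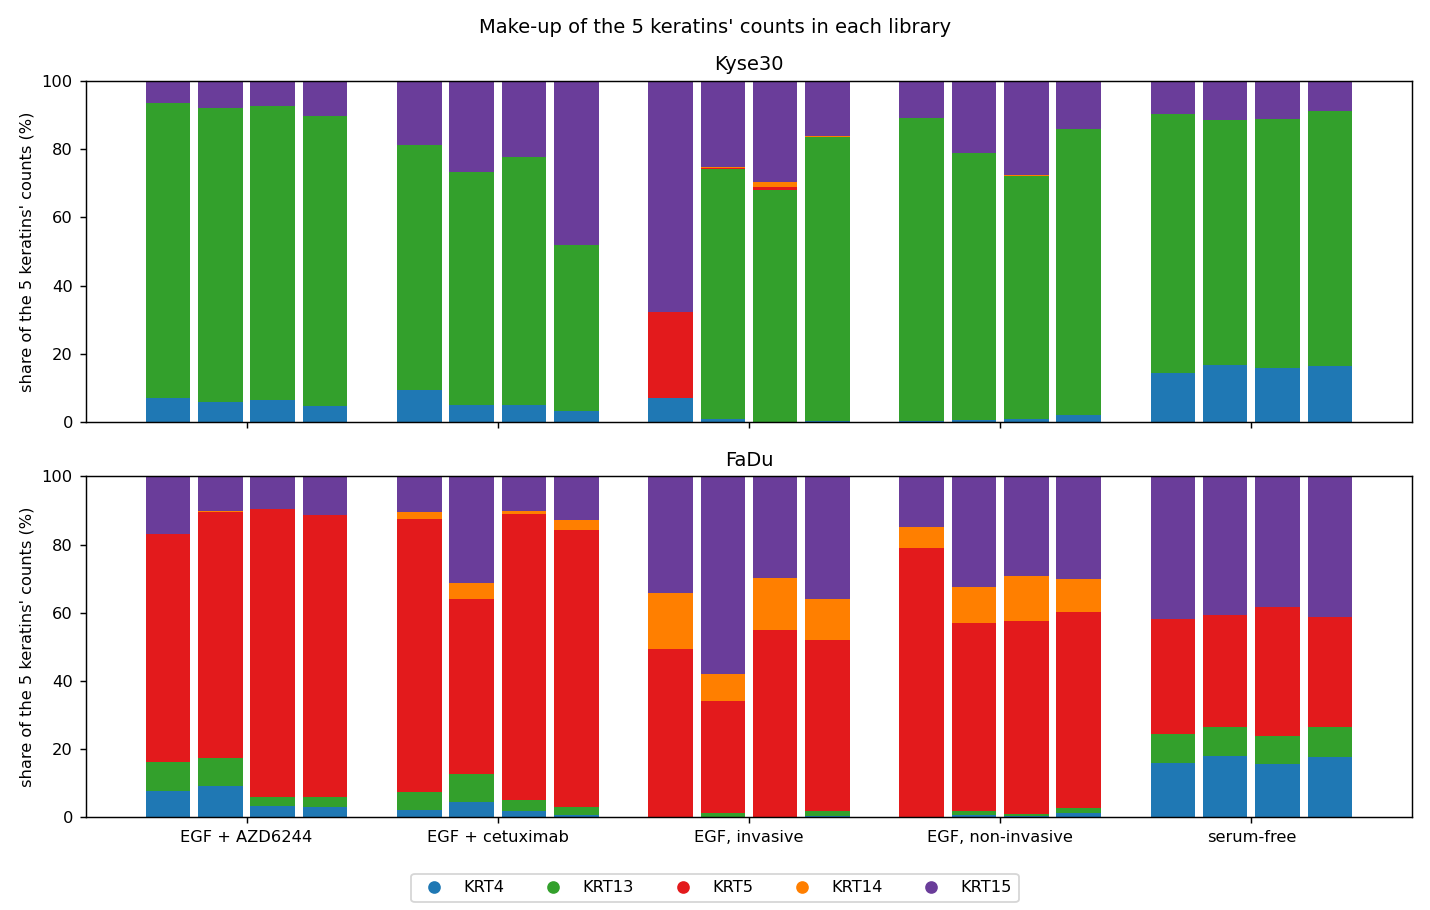
Share of each keratin in the summed counts of the 5 keratins (vertical axis, percent), 1 stacked bar per library, Kyse30 above FaDu. KRT13 (green) is the largest part of each Kyse30 bar, apart from the invasive library with 28 keratin counts. In Kyse30 cetuximab replicate 4 it is 48.6%, next to 48.0% for KRT15. KRT5 (red) and KRT15 (purple) fill most of the FaDu bars.

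Genes with the most similar pattern were sought for the 3 keratins with at least 10 CPM in a group of each line, by the smaller of the Pearson correlations over the 20 libraries of each line (log2 CPM, prior count 1). The libraries within a line share their groups, so these are descriptions. For KRT4 the closest were RXRA, a nuclear receptor (r = 0.938 in Kyse30 and 0.944 in FaDu), CYP1A1, a cytochrome P450 (0.928 and 0.924), and then JDP2, TJP3 and the epithelial transcription factor ELF3. For KRT13 they were ING4 (0.945 and 0.943), TRAPPC6A (0.952 and 0.932), IRX2-DT, ZNF189 and FBLN1. For KRT15 they were GATA3, a zinc finger transcription factor (0.882 and 0.903), CTSD, a lysosomal protease (0.876 and 0.900), SH3GLB2, RXRA and GNPDA1. Among the keratins themselves, KRT4 and KRT13 followed each other with r = 0.627 in Kyse30 and 0.981 in FaDu, and KRT4 and KRT15 with r = 0.823 and 0.913. Since these genes were picked for their pattern, their own differences are given as values: over serum-free spheroids, non-invasive cells had CYP1A1 at -5.91 ± 0.41 in Kyse30 and -6.12 ± 0.36 in FaDu, RXRA at -1.63 ± 0.18 and -2.20 ± 0.12, and GATA3 at -0.86 ± 0.25 and -5.68 ± 0.58 (log2).

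The other genes of this biology were followed in the comparison of non-invasive cells with serum-free spheroids. Of all genes tested, 8.10% were higher and 4.76% lower in Kyse30 non-invasive cells, with a median log2 difference of 0.03, and in FaDu 25.3% were higher and 24.7% lower, with a median of -0.02. Of 28 other keratins listed, 10 were in the table. In Kyse30, 3 of 10 tested rose and 1 fell (median 0.50), and in FaDu 3 of 9 rose and 3 fell (median 0.08). KRT6A, a keratin of stressed and healing epithelium, rose in both, by 3.41 ± 0.62 in Kyse30 and, with 2 serum-free counts, 173-fold in FaDu (counting interval 47.7-fold to 1436-fold). KRT8 and KRT18, the pair of simple epithelia, rose by 1.79 ± 0.21 and 0.96 ± 0.19 in Kyse30 and by 0.40 ± 0.15 and 1.31 ± 0.16 in FaDu. KRT19, KRT80 and KRT16 fell in FaDu (-1.49 ± 0.17, -1.60 ± 0.30 and -1.74 ± 0.57), and KRT23 fell in Kyse30 (-2.53 ± 0.42).

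Genes of suprabasal mucosal differentiation did not move as KRT4 and KRT13 did in Kyse30. Of 19 listed genes in the table, 9 of the 17 tested rose there and 0 fell by edgeR, 1 at an unadjusted p under 0.05 (median 1.24), while in FaDu 1 of the 10 tested rose and 6 fell (median -1.19). TMPRSS11E, a serine protease, rose by 4.02 ± 0.83 in Kyse30, the cornified envelope protein gene SPRR2A by 3.51 ± 1.04, and ECM1, with 1 serum-free count, 41.6-fold (counting interval 7.18-fold to 1669-fold). In FaDu the cross-linking enzyme gene TGM1 was at -3.12 ± 0.58, CNFN at -3.01 ± 0.46 and the protease inhibitor gene SPINK5 at -1.97 ± 0.33, while ANXA1 rose by 1.09 ± 0.14. In the test of the difference between the lines, 5 of the 19 genes were higher in Kyse30 and 0 lower, also at an unadjusted p under 0.05, where 9.48% of all genes were higher and 6.20% lower.

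Basal layer genes that changed mostly rose, unlike KRT5 and KRT15. Of 20 listed, 11 of the 18 tested in Kyse30 rose and 1 fell (median 1.05), and in FaDu 12 of 20 rose and 7 fell (median 0.88). The integrin gene ITGA2 rose by 1.63 ± 0.21 in Kyse30 and 3.64 ± 0.23 in FaDu. COL17A1, a hemidesmosome collagen, rose by 2.67 ± 0.38 in Kyse30, and CD44, a hyaluronan receptor, by 3.43 ± 0.20 in FaDu. SOX2, a transcription factor of squamous progenitors, fell in both lines, with log2 differences of -1.64 ± 0.52 in Kyse30 and -4.73 ± 0.32 in FaDu, and DLL1 and BCAM were at -3.23 ± 0.45 and -2.96 ± 0.21 in FaDu.

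Among squamous transcription factors, 1 of 18 rose and 2 fell in Kyse30 (median -0.15), and 3 of 19 rose and 7 fell in FaDu (median -0.25). ELF3 fell in both lines, with log2 differences of -1.46 ± 0.24 in Kyse30 and -2.93 ± 0.22 in FaDu. KLF5 was at -0.90 ± 0.21 and TFAP2A at 0.85 ± 0.26 in Kyse30, and in FaDu NOTCH1 was at -3.04 ± 0.21, PAX9 at -2.13 ± 0.26, PRDM1 at 3.28 ± 0.58, OVOL1 at 2.67 ± 0.59 and EHF at 0.62 ± 0.26. Of the genes listed for keratin anchoring and organising, 3 of 11 rose and 0 fell in Kyse30, also at an unadjusted p under 0.05 (median 0.23). In FaDu 4 of 11 rose and 5 fell (median 0.35). PLEC, a linker of keratin to hemidesmosomes, rose by 1.01 ± 0.22 in Kyse30 and 1.55 ± 0.17 in FaDu. DST, another such linker, was at 2.04 ± 0.28 in Kyse30 and -0.85 ± 0.18 in FaDu, and DSP, which ties keratin to desmosomes, was at 1.25 ± 0.20 in Kyse30 and -0.85 ± 0.16 in FaDu.

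With AZD6244 over non-invasive cells, the same lists were read against all genes tested, of which 1.65% were higher and 2.91% lower in Kyse30 and 14.8% were higher and 14.9% lower in FaDu. Suprabasal mucosal genes held 0 higher (also unadjusted) and 6 lower of 17 in Kyse30 (median -1.02), and 4 higher and 3 lower of 10 in FaDu (median 0.49). Basal layer genes held 1 higher and 7 lower of 18 in Kyse30 (median -1.18), and 4 higher and 12 lower of 20 in FaDu (median -1.29). No other tool was run on the lists.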

How the data were processed

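RNA was measured in 40 libraries, 5 groups of 4 in each of 2 cell lines, with a QuantSeq 3′ kit whose labels name no molecular identifiers. The deposited values are raw counts of reads for each gene. The submitters' processing notes list STAR, HTSeq and GRCh38; versions, gene annotation and strandedness were not given in the sources used here. Each gene of the table had at least 142 counts over all libraries and was seen in at least 4 of them. Groups came from the sample titles, and 0 columns were left unmatched. Replicates of every group differed by more than sampling noise (chi-square per degree of freedom 2.42 to 67.4).

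Tests were edgeR quasi-likelihood F tests (edgeR 4.0.16, R 4.3.3) with TMM scaling, edgeR's expression filter and robust dispersions, fitted on the whole table: 11976 genes over the 20 Kyse30 libraries, 12131 over the 20 FaDu libraries and 12652 over all 40. Benjamini-Hochberg adjustment covered all genes tested in a fit, and a gene is called at an adjusted p under 0.05. The value after ± is the size of the edgeR log2 difference divided by the square root of its F statistic. It is an approximate SE, not one estimated in the fit. Levels are CPM computed with TMM factors within a line. Comparisons that share the serum-free or non-invasive libraries are not independent. Group totals of 1 to 3 counts are given as ratios with exact 95% intervals and totals of 0 against a floor of 3 counts; these cover counting error only.

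Alternatives were other scalings (RLE, total counts), other count filters, DESeq2 1.42.0, limma-voom (limma 3.58.1), a replicate block, fits of only the groups compared, and fits without each replicate, without the shallow Kyse30 library or without the 2 MALAT1-rich ones. Other steps used Python 3.11.15 with numpy 2.4.6, pandas 2.3.3, scipy 1.17.1 and matplotlib 3.10.9. The members, gene lists and tests were chosen with earlier results of these data known. Named genes were the 5 members, the 5 genes most like each member with at least 10 CPM in a group of each line, and the 3 largest rises and falls called per list in non-invasive cells against serum-free. One gene that this rule names is not reported here.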

Additional observations from a re-analysis of the deposited data

Results flagged for a closer look

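In groups of 4 libraries, 48 sets of keratin values were searched for a library far from the other 3, and 4 were found. The cut-off used flags about 1 in 20 sets of normally distributed values, which low counts are not. A set with 3 libraries at 0 is flagged whatever the count in the remaining library, as in both KRT14 sets below. KRT13 was 489 CPM in Kyse30 non-invasive replicate 1, against 102 to 151 CPM in the other 3, and that library had 6.27% of its counts in MALAT1 and 17.4% in mitochondrial genes. KRT5 was 15.0 CPM in Kyse30 invasive replicate 1, which is 7 counts in the library with 463124 counts. KRT14 was 0.536 CPM in Kyse30 AZD6244 replicate 2 and 0.259 CPM in Kyse30 cetuximab replicate 1, with 0 in the other 3 libraries of each group, so both rest on 1 or 2 counts.

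Responses that differed between the lines by the interaction test in edgeR, as the Kyse30 minus the FaDu log2 difference, were as follows. For non-invasive cells against serum-free they were KRT13 at 4.97 and KRT15 at 2.75. For invasive cells against serum-free they were KRT13 at 3.63, KRT15 at 1.61 and KRT5 at 5.74, the last on near-0 counts in Kyse30. For cetuximab against non-invasive cells KRT15 differed by 1.75, and for AZD6244 against non-invasive cells KRT13 differed by -3.91. For AZD6244 against cetuximab KRT15 differed by -2.87 and KRT4 by -2.70. The causes were not tested.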

How the results depend on the processing

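Of the alternative values of single keratins, 1770 kept direction and side of the threshold, 31 lost a call, 23 gained one and 28 changed direction. Of the alternative counts of keratins called, 415 stayed within 1.5 times and 13 moved. The direction changes were all of uncalled differences. Leaving out a replicate, FaDu KRT13 in invasive against non-invasive cells ran from -1.13 to 0.28 (log2; main -0.19) and FaDu KRT14 in cetuximab against non-invasive cells from -0.47 to 0.02 (single value 0.015). For the Kyse30 minus FaDu difference, KRT4 in invasive against non-invasive cells was 0.0452 with DESeq2 and ran from -0.83 to 0.75 without a replicate. On near-0 Kyse30 counts, KRT5 without a replicate ran from -0.28 to 1.02 for non-invasive against serum-free, from -0.64 to 0.23 for cetuximab and from -1.23 to 0.25 for AZD6244 against non-invasive cells, and from -1.05 to 0.46 for AZD6244 against cetuximab, where DESeq2 gave 0.24. The causes were not tested.

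Counts of keratins called moved as follows. In Kyse30, AZD6244 against non-invasive cells gave 1 to 3 without a replicate (main 3). Cetuximab against serum-free gave 3 with only the compared groups (main 1). AZD6244 against serum-free gave 2 with limma-voom, 2 with only the compared groups and 1 to 2 without a replicate (main 1). AZD6244 against cetuximab gave 2 with only the compared groups and 0 to 1 without a replicate (main 1). For the difference between the lines, invasive against non-invasive cells gave 1 with DESeq2 (main 0), cetuximab against non-invasive cells 0 to 1 without a replicate (main 1) and AZD6244 against non-invasive cells 0 without the MALAT1-rich libraries (main 1).

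Replicate numbers were not taken as pairs, since in no comparison did all 4 same-numbered pairs correlate above 0.1 (range -0.174 to 0.335). Kyse30 AZD6244 against cetuximab came nearest, with 0.0991 to 0.335, 3 of 4 pairs above 0.1 and 3 of 4 libraries best matched to their own number. In the other comparisons 0 to 2 of 4 libraries were. With a replicate block, 3 members were called for cetuximab against non-invasive cells in FaDu (main 4; KRT15 at 1.01, adjusted p = 0.0511), and the count was as in the main fit in each of the other within-line comparisons. Total-count scaling moved the median of all genes most in Kyse30 AZD6244 against non-invasive cells, to 0.28 (main -0.02). Depth limits KRT5 and KRT14 in Kyse30, KRT4 in EGF-treated FaDu cells and all members in the Kyse30 library with 463124 counts.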
